A study of Mus musculus with 9 samples.

Results

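The signalling chain through which cells read interferon-γ (IFNγ) was followed at the RNA level in 9 genes. These were the receptor chains Ifngr1 and Ifngr2, the kinases Jak1 and Jak2, the transcription factors Stat2 and Stat3, and the feedback inhibitors Socs1, Socs3 and Ptpn2. They were taken by symbol from a table of 24186 mouse genes, where each symbol had a row, and all 9 were among the 15098 genes with enough counts to be tested. RNA came from marrow stromal cells of C57Bl/6 mice, adult and carrying the irtTA-GBD*-TAg transgene, from which dexamethasone (Dex) and doxycycline (Dox) induce Large T-antigen. The cells of every group had been conditionally immortalised in this way, cloned, and kept without Dex and Dox for 3 days before RNA was taken. The groups of 3 libraries each were adipogenic progenitors given 10 ng/ml IFNγ for 3 days, progenitors with osteogenic potential that received no IFNγ, and adipogenic progenitors that received none. Which clone or animal each library came from is not given in the sources used here, so the p values measure the spread between these libraries, and the immortalised clones limit how far they stand for marrow stroma.

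IFNγ binds Ifngr1, which is joined by Ifngr2, and the receptor then activates the kinases Jak1, bound to Ifngr1, and Jak2, bound to Ifngr2. The kinases phosphorylate STAT proteins, which enter the nucleus and act on short DNA elements, the GAS and the ISRE, near interferon-inducible genes. Stat2 works mainly with Irf9 at ISREs in the response to type I interferons, and Stat3 is the main STAT of cytokines of the Il6 family. Socs1 and Socs3 are induced by cytokines and block JAK kinases, and Ptpn2 is a tyrosine phosphatase that removes phosphate from JAKs and STATs. In marrow stroma IFNγ is known as a signal from activated lymphocytes.

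Promoters are shown for the 3 genes whose window held a GAS or ISRE match, because these are the elements on which the pathway's own STATs act. Each is the 250 bases before the start site given by RefSeq in GRCm38.p6, read 5′ to 3′ on the strand of the gene, with the matches in capitals. The searches were for TTCNNNGAA (GAS) and for GAAA, any 2 bases and GAAA again (ISRE), on both strands, and the windows of 8 of the 9 genes were read, that of Ptpn2 not being analysed here. The Socs1 window (chr16:10785537-10785786, minus strand) held 2 overlapping ISRE matches, from 83 to 74 and from 77 to 68 bases before the start. That of Stat2 (chr10:128270248-128270497, plus strand) held an ISRE match on the opposite strand, from 222 to 213 bases before the start, and that of Socs3 (chr11:117969367-117969616, minus strand) a GAS match from 154 to 146 bases before it.
Socs1: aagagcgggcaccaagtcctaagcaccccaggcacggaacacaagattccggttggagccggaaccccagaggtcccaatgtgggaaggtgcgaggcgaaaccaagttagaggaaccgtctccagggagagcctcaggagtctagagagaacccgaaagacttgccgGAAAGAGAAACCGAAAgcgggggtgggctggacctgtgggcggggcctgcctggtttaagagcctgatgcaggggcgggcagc
Stat2: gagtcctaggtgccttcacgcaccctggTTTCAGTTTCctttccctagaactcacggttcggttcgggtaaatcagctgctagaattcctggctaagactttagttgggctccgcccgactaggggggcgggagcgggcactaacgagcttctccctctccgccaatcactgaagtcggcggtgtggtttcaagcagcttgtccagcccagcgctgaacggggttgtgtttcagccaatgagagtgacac
Socs3: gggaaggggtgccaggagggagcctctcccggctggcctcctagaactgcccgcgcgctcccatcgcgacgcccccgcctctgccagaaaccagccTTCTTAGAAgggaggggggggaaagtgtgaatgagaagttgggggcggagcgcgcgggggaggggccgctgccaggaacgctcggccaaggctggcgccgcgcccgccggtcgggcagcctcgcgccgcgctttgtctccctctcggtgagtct
The windows of Ifngr1, Ifngr2, Jak1, Jak2 and Stat3 held neither string of letters. Over 32851 RefSeq promoter windows of the same length, 2306 (7.02%) held the GAS string and 978 (2.98%) the ISRE string. A match describes the letters of the window and was not tested as a binding site.

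Libraries held 27440089 to 39251602 counts, so that 3 counts, the limit a count of 0 allows for counting error alone, were worth 0.0749 to 0.113 CPM, the unit of counts scaled to library size. The 9 genes had 84 to 29798 counts in a library. Levels are given in CPM, and group levels as mean ± SD over the 3 libraries of a group. Fold changes are on the log2 scale ± SE with an adjusted p from edgeR's quasi-likelihood test, adjusted over all genes tested, and a gene is said to have risen or fallen where this p was under 0.05. The labelled stromal origin was checked against markers, of which 9 of 10 leukocyte genes were matched and summed to 14.7 to 20.8 CPM in treated, 11.1 to 15.5 in osteogenic and 15.6 to 31.6 in untreated libraries. Most of the leukocyte sum came from Cd14 and Cd68. Their means were 7.96 and 8.39 CPM in treated, 4.8 and 3.99 in osteogenic and 10.2 and 10.3 in untreated cells. The leukocyte marker Ptprc had 2 to 4 counts over the 3 libraries of a group. Stromal markers summed to 7104 to 8086 CPM in treated, 52254 to 74680.3 in osteogenic and 13071 to 22062 in untreated libraries. Thy1, however, had at most 1 count in a library. Most of each stromal sum came from Col1a1 and Col1a2, the only stromal markers called in osteogenic against untreated cells, both higher. Bone precursor markers summed to 304 to 475 CPM in treated, 664 to 2262 in osteogenic and 279 to 1426 in untreated libraries. Of these markers, 5 of 7 were called higher in osteogenic than in untreated cells. In adipogenic libraries most of the bone precursor sum came from Spp1, which was not among those called. Fat precursor markers summed to 177 to 426 CPM in treated, 111 to 162 in osteogenic and 131 to 712 in untreated libraries, and Adipoq, a gene of mature fat cells, had 2, 1 and 11 counts over the treated, osteogenic and untreated libraries. Endothelial markers summed to 22.2 to 54.4 CPM in treated, 1.67 to 2.63 in osteogenic and 9.22 to 17.8 in untreated libraries, nearly all of it from Kdr, with 0 to 10 counts over the 3 libraries of a group for each of Pecam1, Cdh5, Tie1 and Emcn. Kdr lay in the same order of groups as Jak2, Stat2, Irf9 and Usp18 below, and its part in those results was not tested. In bulk RNA, more cells that express a gene and more RNA per cell cannot be told apart.

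With IFNγ, 5 of the 9 genes rose, namely Jak2, Stat2, Stat3, Socs1 and Socs3, and 1, the receptor chain Ifngr2, fell. Over all genes tested, 2.26% passed in this comparison, 2.01% higher and 0.245% lower. The median log2 fold change was 1.27 for the 9 genes and −0.02 for all genes tested, and the libraries of the groups did not overlap for 7 of the 9, against 17.4% of all genes. Numbers in the library labels paired treated and untreated cells, and with this number as a block the same 6 genes passed, in the same directions, while 10.8% of all genes passed, 6.53% higher and 4.27% lower. Osteogenic cells, in the comparison with untreated adipogenic cells, had a lower Stat2 and a higher Socs3, 2 of the 9 genes, where 5.17% of all genes passed, 1.98% higher and 3.19% lower. The comparisons share libraries, so their values are given side by side and are not independent.

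**Figure D1:**
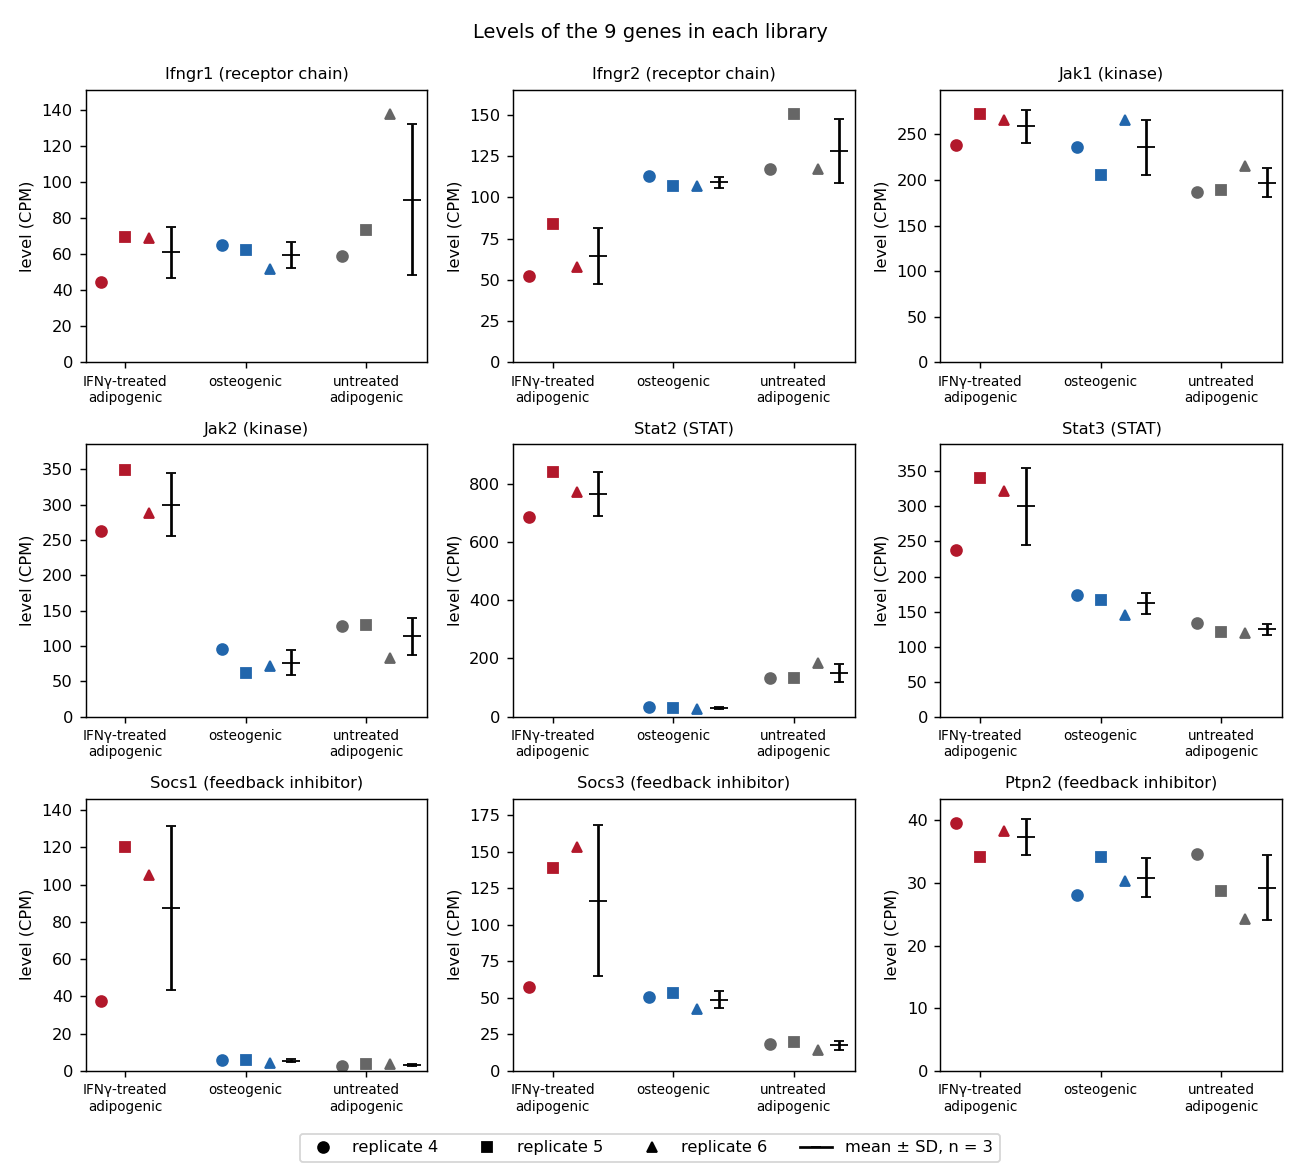
Level of each of the 9 genes in CPM (vertical axes, linear from 0) in every library, by group, with the mean and SD of 3 libraries in black. Socs1 reached 37.3 to 120.0 CPM in treated libraries and 2.37 to 3.44 in untreated ones, while Ptpn2 stayed between 24.3 and 39.6 in all 9.

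Of the receptor chains, Ifngr2 fell with IFNγ and Ifngr1 did not pass. Ifngr2 (ENSMUSG00000022965, chromosome 16), the chain that brings in Jak2, had 52.2, 83.7 and 57.5 CPM in treated replicates 4, 5 and 6, against 117, 150.5 and 117 CPM in untreated ones. In the osteogenic replicates 4, 5 and 6 it had 113, 107 and 107 CPM. Every treated library was thus below every library of the other groups, and treated cells averaged 64.5 ± 16.9 CPM against 128 ± 19.4 in untreated cells. Ifngr2 fell to 0.503 of its untreated level with IFNγ, a log2 fold change of −0.99 ± 0.19 (adjusted p = 0.0398). Between the treated and untreated library of the same number the log2 difference was −1.16, −0.85 and −1.02 for numbers 4, 5 and 6. It was also lower in treated than in osteogenic cells, at 0.591 of their level (−0.76 ± 0.19, adjusted p = 0.0306), while osteogenic and untreated cells stood at 109 ± 3.40 and 128 ± 19.4 CPM (−0.23 ± 0.19, adjusted p = 0.506). The fall with IFNγ kept its direction in each fit with 1 library left out, −1.24 to −0.84, but passed in 1 of 9 such fits, the one without treated replicate 5 (adjusted p = 0.0132). Without the others the adjusted p was 0.0799 to 0.188, and with the number as a block it was 0.00192. The difference from osteogenic cells lost its call without untreated replicate 6 (0.0531), treated replicate 4 (0.0944) or 6 (0.12), or osteogenic replicate 4 (0.11), 5 (0.0946) or 6 (0.0767).

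Ifngr1 (ENSMUSG00000020009, chromosome 10), the chain that binds the ligand and carries the STAT docking site, did not pass in any comparison. It had 44.7, 69.7 and 69.0 CPM in treated replicates 4, 5 and 6, against 59.3, 73.4 and 138 CPM in untreated ones. Osteogenic libraries had 65.3, 62.6 and 51.6 CPM. Untreated replicate 6 stood above all other libraries, and the rest of the groups overlapped. The log2 fold change with IFNγ was −0.56 ± 0.32 (adjusted p = 0.499), and it was −0.11 (adjusted p = 0.905) without untreated replicate 6. Osteogenic cells, at 59.8 ± 7.26 CPM, differed from untreated cells, at 90.4 ± 42.2 CPM, by −0.60 ± 0.32 (adjusted p = 0.302). Treated and osteogenic cells lay close together, at 61.1 ± 14.2 and 59.8 ± 7.26 CPM (0.03 ± 0.32, adjusted p = 0.959).

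Per kilobase of exon the receptor chains can be set against each other within a library. The ratio of Ifngr2 to Ifngr1 was 1.00, 1.03 and 0.716 in treated replicates 4, 5 and 6, against 1.69, 1.76 and 0.727 in untreated ones. Osteogenic libraries had ratios of 1.49, 1.47 and 1.79. Replicates 4 and 5 of the untreated cells were close to the osteogenic ones. Untreated replicate 6, the library with the high Ifngr1, was close to the treated ones, so the treated and untreated groups overlapped in this ratio. A later annotation, GENCODE M21, gives Ifngr2 3767 exonic bases in place of the 3313 used here. With the deposited counts divided by that length, the ratios were 0.883, 0.908 and 0.63 in treated replicates 4, 5 and 6. In untreated ones they were 1.49, 1.55 and 0.639, so the groups still overlapped.

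Of the kinases, Jak2 rose with IFNγ and Jak1 did not pass. Jak2 (ENSMUSG00000024789, chromosome 19), the kinase bound to Ifngr2, had 262, 349 and 288 CPM in treated replicates 4, 5 and 6, against 128, 129.9 and 83.2 CPM in untreated ones. Osteogenic libraries had 96.3, 62.1 and 71.1 CPM. The treated libraries lay above all others, and the osteogenic and untreated ones overlapped. The rise with IFNγ was 2.63-fold, 1.40 ± 0.23 on the log2 scale (adjusted p = 0.0195), and the difference from osteogenic cells 3.92-fold (1.97 ± 0.24, adjusted p = 0.00156). Osteogenic cells averaged 76.5 ± 17.7 CPM and untreated cells 114 ± 26.5 CPM (−0.57 ± 0.23, adjusted p = 0.184). The rise with IFNγ did not pass without untreated replicate 4 (adjusted p = 0.0642), 5 (0.0513) or 6 (0.059), or without treated replicate 5 (0.0633) or 6 (0.0687), where it was 1.22 to 1.50 on the log2 scale. It also did not pass with only the 6 libraries compared (0.0587). With the number as a block for the adipogenic libraries it passed, at 1.42 ± 0.21 (adjusted p = 0.0103).

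Jak1 (ENSMUSG00000028530, chromosome 4), the kinase bound to Ifngr1, had 238, 272 and 266 CPM in treated replicates 4, 5 and 6, against 187, 189 and 215 CPM in untreated ones. Osteogenic libraries, at 236, 205 and 266 CPM, overlapped with both. Although every treated library was above every untreated one, the difference of 0.39 ± 0.14 on the log2 scale did not pass (adjusted p = 0.218, unadjusted p = 0.0185). Per kilobase of exon, Jak1 stood at 0.633, 0.542 and 0.644 of the Jak2 level in treated replicates 4, 5 and 6, against 1.01, 1.01 and 1.8 in untreated ones. In osteogenic libraries Jak1 was 1.71, 2.3 and 2.6 times the Jak2 level. Jak2 was thus above Jak1 in all 3 treated libraries, about level with it in untreated replicates 4 and 5, and below it in untreated replicate 6 and all 3 osteogenic libraries.

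Both STAT genes rose with IFNγ, and they differed in osteogenic cells. Stat2 (ENSMUSG00000040033, chromosome 10), the partner of Irf9, had 688, 840.3 and 771 CPM in treated replicates 4, 5 and 6, against 132, 133 and 184 CPM in untreated ones. In osteogenic libraries it had 32.0, 29.5 and 26.0 CPM. The groups lay apart, with treated cells highest and osteogenic cells lowest. Stat2 rose 5.12-fold with IFNγ (2.36 ± 0.18 on the log2 scale, adjusted p = 0.00045) and was 5.13-fold lower in osteogenic than in untreated adipogenic cells (−2.36 ± 0.18, adjusted p = 0.00104). Treated and osteogenic cells were 26.3-fold apart (4.72 ± 0.20, adjusted p = 1.06e-05). All 3 of these calls held in each of the 9 fits with 1 library left out.

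Stat3 (ENSMUSG00000004040, chromosome 11), the STAT of Il6 family cytokines, had 238, 340.5 and 322 CPM in treated replicates 4, 5 and 6, against 134, 120.1 and 119.8 CPM in untreated ones. Osteogenic libraries lay between them without overlap, at 173, 167 and 145 CPM. Stat3 rose 2.41-fold with IFNγ (1.27 ± 0.16, adjusted p = 0.00461) and was 1.86-fold higher in treated than in osteogenic cells (0.89 ± 0.16, adjusted p = 0.00768). Osteogenic cells, at 162 ± 14.5 CPM, were not called against untreated cells, at 125 ± 7.95 CPM (0.38 ± 0.16, adjusted p = 0.194). In GENCODE M21, 72 of the 9527 exonic bases of Stat3 lie on the opposite strand of Stat5a exons. The strand setting of the counting is not given in the sources used here, so reads from these bases cannot be assigned with certainty.

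The ratio of the STAT genes per kilobase of exon separated all groups. Stat2 stood at 6.24, 5.34 and 5.18 times the Stat3 level in treated replicates 4, 5 and 6, against 2.14, 2.39 and 3.31 times in untreated ones. In osteogenic libraries it was at 0.401, 0.381 and 0.386 of the Stat3 level. Stat2 was thus above Stat3 in all 6 adipogenic libraries and below it in all 3 osteogenic ones. The deposited table gives Stat2 4406 exonic bases, and GENCODE M21, a later annotation, gives it 5926. The order was the same with the deposited counts divided by that longer length.

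**Figure D2:**
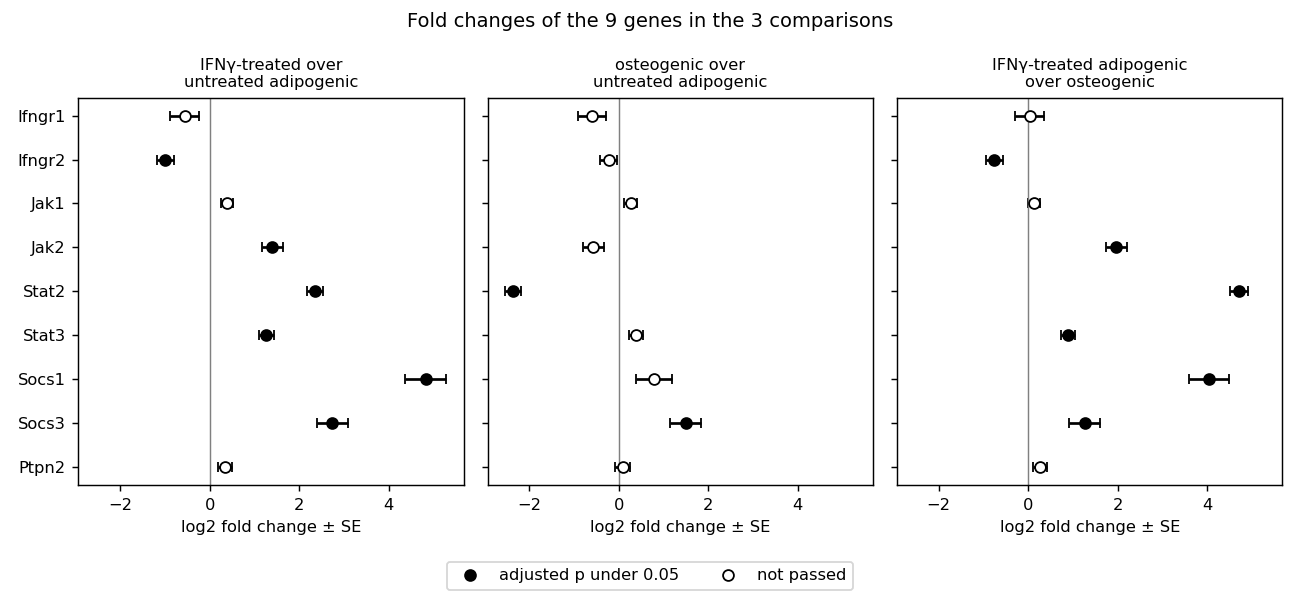
Log2 fold change ± SE (horizontal axes) of each gene in the 3 comparisons, from edgeR's quasi-likelihood fit of 9 libraries, filled where the adjusted p was under 0.05. Stat2 lay at 2.36 with IFNγ and at −2.36 in osteogenic cells, and Socs3 was above 0 in both.

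Among the feedback inhibitors Socs1 and Socs3 rose with IFNγ and Ptpn2 did not pass. Socs1 (ENSMUSG00000038037, chromosome 16), which binds JAK kinases and blocks their activity, and whose window with the ISRE matches is printed above, had 37.3, 120.0 and 105 CPM in treated replicates 4, 5 and 6, against 2.37, 3.42 and 3.44 CPM in untreated ones. Osteogenic libraries had 5.83, 5.68 and 4.4 CPM. The untreated values rest on 84, 120 and 138 counts and the treated ones on 1261, 4255 and 3689. No groups overlapped, with treated libraries far above the rest and osteogenic ones slightly above untreated ones. Socs1 rose 28.4-fold with IFNγ, 4.83 ± 0.46 on the log2 scale (adjusted p = 0.00127), which was the largest fold change among the 9 genes, and treated cells were 16.5-fold above osteogenic ones (4.04 ± 0.44, adjusted p = 0.000893). Osteogenic cells averaged 5.31 ± 0.784 CPM and untreated cells 3.07 ± 0.614 CPM (0.78 ± 0.40, adjusted p = 0.28). Within numbers, the treated library was 15.8, 35.1 and 30.4 times the untreated one for numbers 4, 5 and 6.

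Socs3 (ENSMUSG00000053113, chromosome 11), which blocks JAKs at receptors of Il6 family cytokines, and whose window with the GAS match is printed above, had 57.3, 139 and 153 CPM in treated replicates 4, 5 and 6, against 18.4, 19.7 and 14.0 CPM in untreated ones. Osteogenic libraries had 50.2, 53.6 and 42.3 CPM. Again no groups overlapped, but treated replicate 4 was only slightly above the highest osteogenic library. Socs3 rose 6.69-fold with IFNγ (2.74 ± 0.35, adjusted p = 0.00573), a call that held in each fit with 1 library left out. In osteogenic cells it was 2.8-fold above untreated cells (1.49 ± 0.34, adjusted p = 0.0467), the only rise among the 9 genes in that comparison. Treated cells were 2.39-fold above osteogenic ones (1.26 ± 0.34, adjusted p = 0.0385). Both calls against osteogenic cells were close to the threshold. The difference from untreated cells passed in 1 of 9 fits, without treated replicate 4 (0.00661), and had an adjusted p of 0.0601 to 0.149 in the others. That between treated and osteogenic cells also passed only without treated replicate 4 (0.00213), with 0.0508 to 0.122 otherwise.

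Ptpn2 (ENSMUSG00000024539, chromosome 18), the phosphatase, had 39.6, 34.1 and 38.3 CPM in treated replicates 4, 5 and 6, against 34.7, 28.8 and 24.3 CPM in untreated ones. Osteogenic libraries had 28.1, 34.2 and 30.3 CPM. Treated and untreated libraries overlapped, and no comparison passed. The log2 fold change was 0.35 ± 0.16 with IFNγ (adjusted p = 0.363), 0.08 ± 0.16 in osteogenic against untreated cells (0.814) and 0.27 ± 0.16 in treated against osteogenic cells (0.273).

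Per kilobase of exon, Socs1 stood at 1.54, 2.05 and 1.62 times the Socs3 level in treated replicates 4, 5 and 6, against 0.304, 0.41 and 0.583 in untreated ones. In osteogenic libraries the ratio was 0.275, 0.251 and 0.247. The ratio was higher in treated libraries than in all others, but whether it lies above 1 there depends on the exonic length used. The ratios rest on exonic lengths of 1220 bases for Socs1 and 2891 for Socs3 in the deposited table. With the 2908 exonic bases of GENCODE M21 for Socs1 and the deposited counts unchanged, the ratio was 0.647, 0.861 and 0.68 in treated replicates 4, 5 and 6. In untreated ones it was 0.128, 0.172 and 0.245, and it was below 1 in every library. Reads were not counted again on the longer exons, so this ratio cannot tell which of Socs1 and Socs3 was higher.

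**Figure D3:**
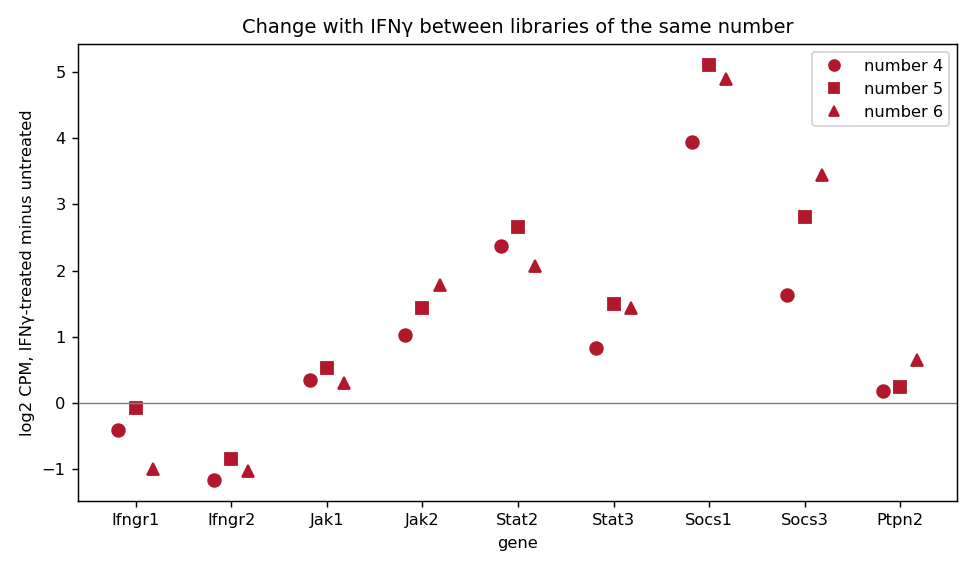
Difference in log2 CPM between the IFNγ-treated and the untreated adipogenic library of the same number (vertical axis), for each gene, with a symbol per number. Ifngr1 and Ifngr2 are below 0 for all 3 numbers and the other 7 genes above 0, with Socs1 at 3.95 to 5.11.

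Libraries that share a number changed in the same direction for all 9 genes, as the plot of differences by number shows. The smallest differences were −0.08 for Ifngr1 in number 5 and 0.19 for Ptpn2 in number 4. Number 4 had the smallest rise for Jak2, Stat3, Socs1 and Socs3, at 1.03, 0.83, 3.95 and 1.63, against 1.43 to 1.79, 1.43 to 1.50, 4.90 to 5.11 and 2.81 to 3.45 in the other numbers. Stat2 did not follow this order, with 2.38 in number 4, 2.66 in number 5 and 2.07 in number 6. Treated replicate 4 had the lowest value of the treated libraries for 8 of the 9 genes, Ptpn2 being the exception. It was also lowest for 16 of 20 other IFNγ target genes, for 54.6% of the 304 genes called higher with IFNγ, and for 35.5% of all genes tested. The reason was not tested.

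Compared per kilobase of exon, the order of the 9 genes differed between groups. In treated cells Stat2 was highest at 174 ± 17.3 CPM per kilobase, then Socs1 at 71.6 ± 36.1 and Jak2 at 59.6 ± 8.88. Socs3 (40.2 ± 17.9), Jak1 (35.8 ± 2.48) and Stat3 (31.5 ± 5.71) followed, and the receptor chains came next, at 21.5 ± 5.00 for Ifngr1 and 19.5 ± 5.09 for Ifngr2. From Socs1 down to Ifngr2 each gene was within the spread of its neighbours, while Stat2 stood apart at the top and Ptpn2, at 11.8 ± 0.914, at the bottom. With the deposited counts over the exonic lengths of GENCODE M21, Socs1 had 30.0 ± 15.1 CPM per kilobase in treated cells, below Jak2, Socs3, Jak1 and Stat3. Reads were not counted again on those exons, so the place of Socs1 behind Stat2 is not settled by these lengths. Stat2 was still highest with these lengths, at 129 ± 12.9 CPM per kilobase, and Ptpn2 lowest.

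In osteogenic cells Ifngr2 (33.0 ± 1.02) and Jak1 (32.6 ± 4.21) were highest and within each other's spread. With the deposited counts over the lengths of GENCODE M21, Ifngr2 had 29.0 ± 0.901 there and came after Jak1. Ifngr1 (21.0 ± 2.55) came next, followed by Stat3 (17.0 ± 1.52), Socs3 (16.8 ± 2.02) and Jak2 (15.2 ± 3.52), which overlapped. Below these came Ptpn2 at 9.77 ± 0.964, Stat2 at 6.62 ± 0.691 and Socs1 at 4.35 ± 0.643. In untreated adipogenic cells Ifngr2 (38.7 ± 5.85), Stat2 (34.0 ± 6.70), Ifngr1 (31.7 ± 14.8), Jak1 (27.3 ± 2.16) and Jak2 (22.6 ± 5.27) led, each within the spread of its neighbour. With the deposited counts over the lengths of GENCODE M21, Stat2 had 25.2 ± 4.98 there and came after Jak1 in the order. Stat3 (13.1 ± 0.834), Ptpn2 (9.26 ± 1.64), Socs3 (6.01 ± 1.04) and Socs1 (2.52 ± 0.504) formed the lower end, each apart from the next, so that both SOCS genes were the least abundant of the 9 before IFNγ.

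**Figure D4:**
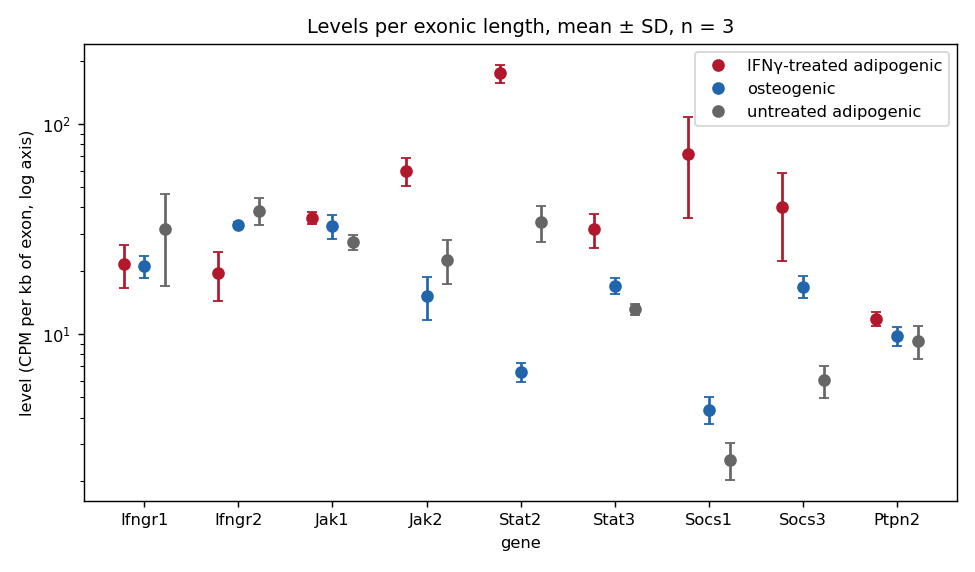
Mean ± SD of 3 libraries per group in CPM per kilobase of exon (vertical log axis) for the 9 genes. Stat2 had 174 in treated, 6.62 in osteogenic and 34.0 in untreated cells, and Ptpn2 had 11.8, 9.77 and 9.26.

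The rest of the JAK-STAT pathway was described with a list of 46 other ligands, receptor chains, kinases, STATs with Irf9, and inhibitors, of which 35 were tested. With IFNγ 0 of the 35 passed edgeR's quasi-likelihood test, 6 had an unadjusted p under 0.05, and the median log2 fold change was 0.03. Of all genes tested 14.3% had an unadjusted p under 0.05 in that comparison, so the 6 of 35 are close to the background. By both limma-voom and DESeq2 2 passed, Usp18 higher and Socs2 lower. DESeq2, which held 43 of the list, called 1043 of all genes, against 341 by edgeR, so its 2 calls are not read as an excess. The share of all genes called by limma-voom is not given here. Socs2 also passed with upper-quartile scaling and with no scaling, and Irf9, higher, with the block over all 9 libraries. Usp18, a protease that restrains the type I interferon receptor, averaged 231 ± 96.3 CPM in treated and 85.1 ± 11.3 CPM in untreated cells (1.44 ± 0.31, adjusted p = 0.0598). Socs2, a SOCS protein known for damping growth hormone signals, averaged 15.5 ± 4.66 and 35.7 ± 7.51 CPM in treated and untreated cells (−1.21 ± 0.26, adjusted p = 0.0598). With the library number as a block, 7 of the 35 passed, where 10.8% of all genes did, 6.53% higher and 4.27% lower. The 5 that rose were Ifnar2 (0.65, adjusted p = 0.0257), Osmr (0.61, 0.0153), Stat5b (0.47, 0.0392), Irf9 (0.56, 0.0398) and Usp18 (1.37, 0.017), and the 2 that fell were Lifr (−0.60, 0.0257) and Socs2 (−1.23, 0.0288). Ifnar2, Osmr and Lifr are receptor chains, for type I interferons, oncostatin M and leukaemia inhibitory factor, and Ifnar2, Osmr, Stat5b and Lifr are named because of these values.

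In osteogenic against untreated adipogenic cells, 4 of the 35 fell and 0 rose, where 3.19% of all genes were called lower and 1.98% higher. The median log2 fold change of the 35 was −0.08. By unadjusted p 12 of the 35 were under 0.05, 2 of them higher, where 23.3% of all genes were, 10.5% higher and 12.8% lower, and neither limma-voom nor DESeq2 called any higher. Usp18 averaged 1.44 ± 0.462 CPM in osteogenic cells and 85.1 ± 11.3 CPM in untreated ones, a 58.4-fold lower level (−5.87 ± 0.38, adjusted p = 0.000658). Irf9, which forms a complex with Stat2 in the type I interferon response, averaged 19.9 ± 2.88 CPM in osteogenic and 83.7 ± 12.1 CPM in untreated cells (−2.07 ± 0.20, adjusted p = 0.00223). Stat2 was lower in the same comparison, as given above. Socs2 averaged 6.92 ± 0.956 CPM in osteogenic and 35.7 ± 7.51 CPM in untreated cells (−2.37 ± 0.27, adjusted p = 0.00475). Il6ra, the chain that binds Il6, averaged 3.53 ± 0.85 CPM in osteogenic and 21.6 ± 8.93 CPM in untreated cells (−2.61 ± 0.37, adjusted p = 0.0112), a call that was lost without osteogenic replicate 4. Next by p, and not passing edgeR's test, were Pias4, a SUMO ligase that binds STATs, with 49.3 ± 4.01 and 70.8 ± 9.43 CPM in osteogenic and untreated cells (adjusted p = 0.0942, and 0.0348 by DESeq2, which called it lower), and Cbl, a ubiquitin ligase, with 24.5 ± 5.46 and 14.9 ± 4.74 CPM (0.135).

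**Figure D5:**
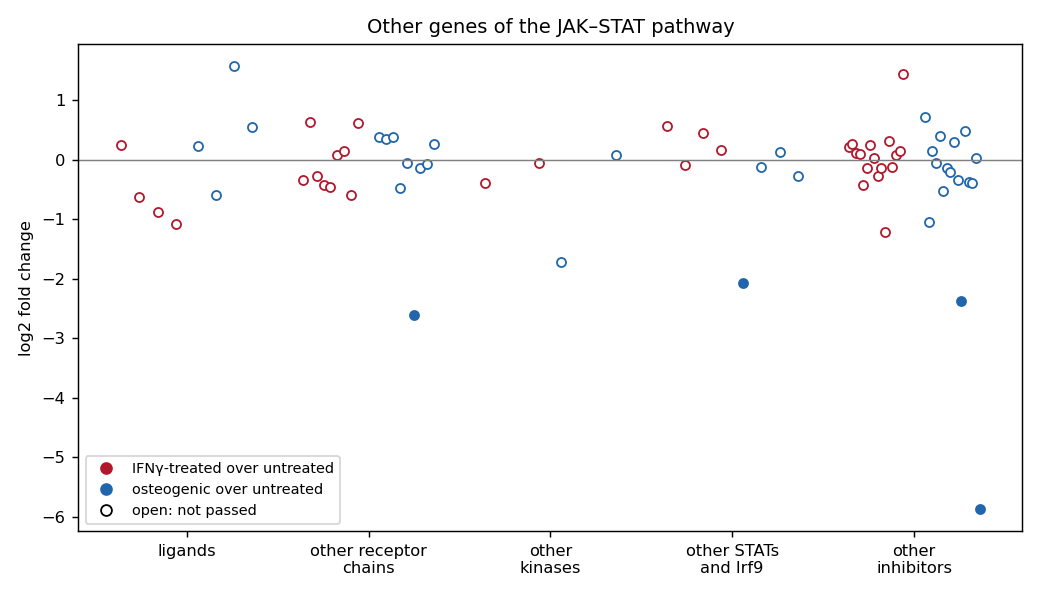
Log2 fold change (vertical axis) of the 35 tested genes of the JAK-STAT list by role, for IFNγ-treated over untreated (red) and osteogenic over untreated (blue), filled where the adjusted p was under 0.05. No red point is filled, and the 4 filled blue points lie between −5.87 and −2.07.

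Between treated and osteogenic cells, 6 of the 35 were higher in treated cells, among them Usp18, Irf9, Socs2 and Il6ra, and 1 was lower, with a median of 0.14. The 9 genes had 5 higher and 1 lower, and of all genes 16.7% passed, 9.2% higher and 7.52% lower. The gene that was lower was Ifnar1, a chain of the type I interferon receptor named for this count, with 63.8 ± 13.4 CPM in treated and 105 ± 9.50 CPM in osteogenic cells (−0.72 ± 0.20, adjusted p = 0.0416). That call was lost with no scaling (adjusted p = 0.0705) and without untreated replicate 6, treated replicate 5 or 6, or any 1 of the osteogenic replicates (0.0555 to 0.116). Over the alternatives 0 to 4 of the list were lower, with 4 of the 43 that DESeq2 held and 3 with the replicate block over all 9 libraries. It was 2 with only the 6 libraries compared and without untreated replicate 5. DESeq2 called 3821 of all genes in this comparison, against 2525 by edgeR, so these counts are not read as a result about the list. The number of higher genes was 3 without treated replicate 6, osteogenic replicate 4 or osteogenic replicate 5. Libraries of the groups did not overlap for 6 of the 9 genes, against 38.5% of all genes, and in osteogenic against untreated cells for 5 of 9, against 31.0%.

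Several ligands of the pathway had few or no counts. Of 12 listed, 4 were tested, and Ifng, Ifnk and Il10 had no row under these names and were not analysed here. Ifnb1, a type I interferon, had 13 counts over the 3 treated libraries, 1 over the osteogenic ones and 12 over the untreated ones. Osm, the ligand of Osmr, and Il10ra, a chain of the receptor for Il10, had 0 counts in all 9 libraries, which allows up to 0.0749 to 0.113 CPM in a library.

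Known IFNγ target genes were taken as a readout of the pathway. Of 20 such genes 19 rose with IFNγ, where 2.01% of all genes were called higher. In osteogenic against untreated cells 12 of the 20 fell, where 3.19% of all genes were called lower. All 20 were higher in treated than in osteogenic cells, where 9.2% of all genes were. Irf8, Ciita and Batf2 are named for this count. They reached the level of the filter on low counts in fewer than 3 of the 6 osteogenic and untreated libraries. The treated libraries brought them into the test. Their higher calls, counted in the 19 and in the 20, were thus tied to the filter, and no median over the 20 is given. With these genes set aside, all of the list but Irgm1 rose with IFNγ, and all were higher in treated than in osteogenic cells. The list was written with results of these libraries known, so its direction in any of these comparisons is not independent evidence.

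Likeness of pattern was measured as the root mean square difference of log2 CPM, centred on each gene's mean, over the 9 libraries, among 8994 genes with a mean of at least 10 CPM. Smaller values mean a closer pattern, and the value of each member against a flat pattern sets the scale. Stat2 had a flat-pattern value of 1.93, and Parp9 (0.145) and Rnf213 (0.201) were among its 3 closest genes. For Socs1, with a flat-pattern value of 2.09, the closest were Irf1 (0.597), Nod1 (0.647) and Il18bp (0.711). Irf1 averaged 790.5 CPM in treated, 41.4 in osteogenic and 53.6 in untreated cells, so that it was lower in osteogenic than in untreated cells where Socs1 was slightly higher, neither of them called. Those of Socs3 (1.15) were Ripk2 (0.449), Samhd1 (0.499) and Gnb4 (0.632), and those of Jak2 (0.871) were Trafd1 (0.249), Whamm (0.312) and Mitd1 (0.313). Stat2 thus had much closer neighbours for its size of change than either SOCS gene.

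The genes that changed less had neighbours at small distances, but their flat-pattern values were small too. Set against those values, none of their closest genes was nearer than Irf1 was to Socs1. Vps54 (0.171) and Dcp2 (0.196) were among the 3 genes closest to Stat3 (0.547). Ifngr2 (0.476) was closest to Gria3 (0.153), Pard6g (0.168) and Ndrg4 (0.177), and Ifngr1 (0.427) to Tesk2 (0.176), Pgrmc1 (0.177) and Rnasek (0.191). Ptpn2 (0.213) and Jak1 (0.199), the flattest of the 9, were closest to Hnrnpd (0.0777), R3hdm1 (0.101) and Hdgf (0.103), and to Toe1 (0.0805), Tcf20 (0.089) and Rab10 (0.0949). No member was among the 3 closest genes of another member.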

How the data were processed

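The deposited table gives whole-number counts of reads for each Ensembl gene, without normalization, from poly(A) RNA sequenced as single reads of 75 bases, with groups read from the titles and the design text. Mouse build mm9, bedtools 2.11 and CASAVA 1.8.0 appear in the submitters' processing notes. How reads were aligned, counted by strand or filtered is not given in the sources used here. The exonic length comes from the same deposited table.

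The counts were fitted with edgeR 4.0.16 under R 4.3.3, with genes kept by filterByExpr per group, TMM scaling, and a robust quasi-likelihood fit of group over all 9 libraries, with two-sided F tests, Benjamini-Hochberg adjustment over 15098 genes and a threshold of 0.05. The SE is the log2 fold change over the square root of F. The code was tested on simulated data. The biological coefficient of variation was 0.378. Every pair of libraries within a group differed beyond sampling noise, and floors cover counting error only, since reads carry no molecular identifiers.

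Each library's deviation from its group mean was correlated across genes, at 0.769 to 0.779 between treated and untreated libraries of the same number, and at −0.0546 to 0.0552 between osteogenic and adipogenic libraries of the same number. The numbers were therefore used as a block for the adipogenic libraries. Alternatives were RLE and upper-quartile scaling, no filter, limma-voom (limma 3.58.1), DESeq2 1.42.0, only the 6 libraries compared, blocks for the number, and leaving out each library. A fit with no scaling beyond library totals, and levels per kilobase with exonic lengths of GENCODE M21, were added after seeing the data. For the latter the deposited counts were divided by the other lengths, and reads were not counted again.

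The 9 genes were always named. Of the pathway list the rule took genes past the threshold with IFNγ and the 6 with the smallest adjusted p in osteogenic against untreated cells, with a mean of at least 1 CPM, and for likeness the 3 closest genes. Some genes that the likeness rule takes are not reported here. The members and lists were chosen with earlier results of these data known. No set test was run.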

Additional observations from a re-analysis of the deposited data

How the results depend on the processing

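Of 468 values of single genes under alternatives, 416 kept their direction and side of the threshold, 45 lost their call and 7, none of them called, changed sign. Stat2, Stat3, Socs1 and Socs3 with IFNγ passed in every alternative run. The changes of sign were in Ptpn2 in osteogenic against untreated cells, with −0.04 without untreated replicate 6 (−0.04 to 0.22 over the libraries left out) and −0.03 with no scaling, and in Ifngr1 in treated against osteogenic cells, with −0.04 under upper-quartile scaling, −0.02 with the replicate block over all 9 libraries, and −0.09, −0.05 and −0.07 without treated replicate 5, treated replicate 6 or osteogenic replicate 6 (−0.09 to 0.23 over the libraries left out). Ifngr2 with IFNγ lost its call without the filter (adjusted p = 0.0552) and with only the 6 libraries compared (0.15). Socs3 in osteogenic against untreated cells lost it without the filter (0.0545), with the block over all 9 libraries (0.0519), by limma-voom (0.0646) and with no scaling (0.0516), so that 1 of the 9 genes remained called under each of these. In treated against osteogenic cells Socs3 lost it with that block (0.0535), by limma-voom (0.0582) and with only the 6 libraries (0.0671). Leaving out 1 library gave 4 to 5 called members with IFNγ, 1 to 2 in osteogenic against untreated and 4 to 5 in treated against osteogenic cells. The cause of these losses was not tested.

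Of all genes, 341 passed with IFNγ, against 1631 with the replicate block of the adipogenic libraries, 1043 by DESeq2, 178 with only the 6 libraries compared and 194 to 278 with 1 library left out. In osteogenic against untreated cells 780 passed, against 1244 with the block over all 9 libraries, 2165 by DESeq2 and 159 to 771 with 1 library left out. In treated against osteogenic cells 2525 passed, against 3821 by DESeq2 and 1312 to 2474 with 1 library left out. The block changed no call of the 9 genes with IFNγ. With no scaling the median of all genes was −0.124 in osteogenic against untreated and 0.123 in treated against osteogenic cells. The split of higher and lower calls was then 221 and 645, against 299 and 481, in the first, and 1698 and 903, against 1389 and 1136, in the second. Upper-quartile scaling gave 1209 and 1338 in the second. Depth set no limit for the 9 genes, each with at least 84 counts in a library. Dividing the deposited counts by exonic lengths of GENCODE M21 turned the order of Socs1 and Socs3 per kilobase in treated cells, as given above. It also put Jak1 above Ifngr2 in osteogenic cells. Reads were not counted again on those exons, so these changes of order are not settled.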
